A study of Mus musculus with 10 samples.

Results

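Antiviral interferon-stimulated genes outside the OAS, IFIT, IFITM and guanylate binding protein families were followed in mammary glands of BALB/c mice at lactation day 3. The list held 34 genes, chosen by symbol for their published antiviral or interferon-induced roles, with earlier results of these data known. All 34 were matched to an Ensembl gene among the 35275 genes measured by RNA sequencing. In this model of acute mastitis, glands were injected through the teat either with lipopolysaccharide (LPS, from E. coli 055: B5, 50 µL at 0.4 mg/mL) or with 50 µL of sterile phosphate-buffered saline (PBS). Left and right glands of the 4th pair took the injections in alternation, each gland was collected separately 12 h after the LPS injection, and the labels give n = 9. The 10 libraries came from 5 LPS glands and 5 PBS glands, and the labels give no genotype beyond the strain and no agent beyond these injections. No uninjected gland was among them, so the effect of the injection itself is not measured.

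Type I and type III interferons bind receptors that activate JAK kinases. The kinases phosphorylate STAT proteins, and a complex that holds STAT2 and IRF9 binds the interferon-stimulated response element (ISRE) in the promoters of many genes. Many of the encoded proteins sense viral nucleic acid, block steps of viral replication or tune the response. LPS, a cell wall component of Gram-negative bacteria, can call up the same genes through TLR4, its adaptor TRIF and the interferon beta that follows.

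Depth was 15734303 to 18869545 reads a library, and all 34 genes passed the filter on low values, which asked for 1 FPKM or more in 5 or more libraries. FPKM scales reads by gene length and by the reads of the library, so levels can be compared between genes. The lowest count of any of the 34 genes in any library was 76 reads. The tissue label held: the 7 luminal epithelial markers, casein genes among them, summed to 76929.6 to 105497 FPKM in LPS glands and 115162 to 147368 FPKM in PBS glands, most of it from Wap and Csn2. These are bulk samples, so fewer cells of a type and less RNA per cell cannot be told apart. The labels do not state whether the 5 glands of a group came from separate animals, and the p-values therefore measure only the spread between these glands.

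LPS glands held more transcript of 14 of the 34 genes (41.2%), where 2.63% of all genes tested were higher, and less of 0 of the 34, where 0.605% of all genes tested were lower. The median change of the 34 genes was 0.77 on the log2(FPKM + 1) scale, against 0.05 for all 11414 genes tested. Isg15, a ubiquitin-like modifier, averaged 162 ± 50.8 FPKM in LPS glands and 55.3 ± 12.2 FPKM in PBS glands (SD, n = 5 each). Rsad2, which encodes viperin, had the largest change of the 34, 1.59 ± 0.32 (log2, SE). At the other end stood Isg20, Ifi27 and Ifi27l2a, whose mean changes lay between -0.17 and -0.02.

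A call means a limma p below 0.05 after Benjamini-Hochberg adjustment across all genes tested, from a fit with group as the only term. That fit treats the glands as unpaired, and the counts with the replicate number as a block are given at the end. A fold change is on the log2(FPKM + 1) scale unless it is given as a ratio of means, and that scale understates the change of genes with low FPKM. Without adjustment, 27 of the 34 genes had a p below 0.05 with a positive change and 0 with a negative one, where 12.4% and 4.07% of all genes tested did. A call together with a log2 change of at least 1 was reached by 5 of the 34, Isg15, Usp18, Rsad2, Cmpk2 and Dhx58, and by 0.762% of all genes tested. In 9 of the 34 genes (26.5%) every LPS gland lay above every PBS gland, and in 0 every LPS gland lay below. Over all genes tested those shares were 3.53% and 1.22%. The 9 were Isg15, Usp18, Cmpk2, Bst2, Parp9, Ifi44, Rtp4 and Xaf1, all called, and Ifi35, which was not.

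**Figure D1:**
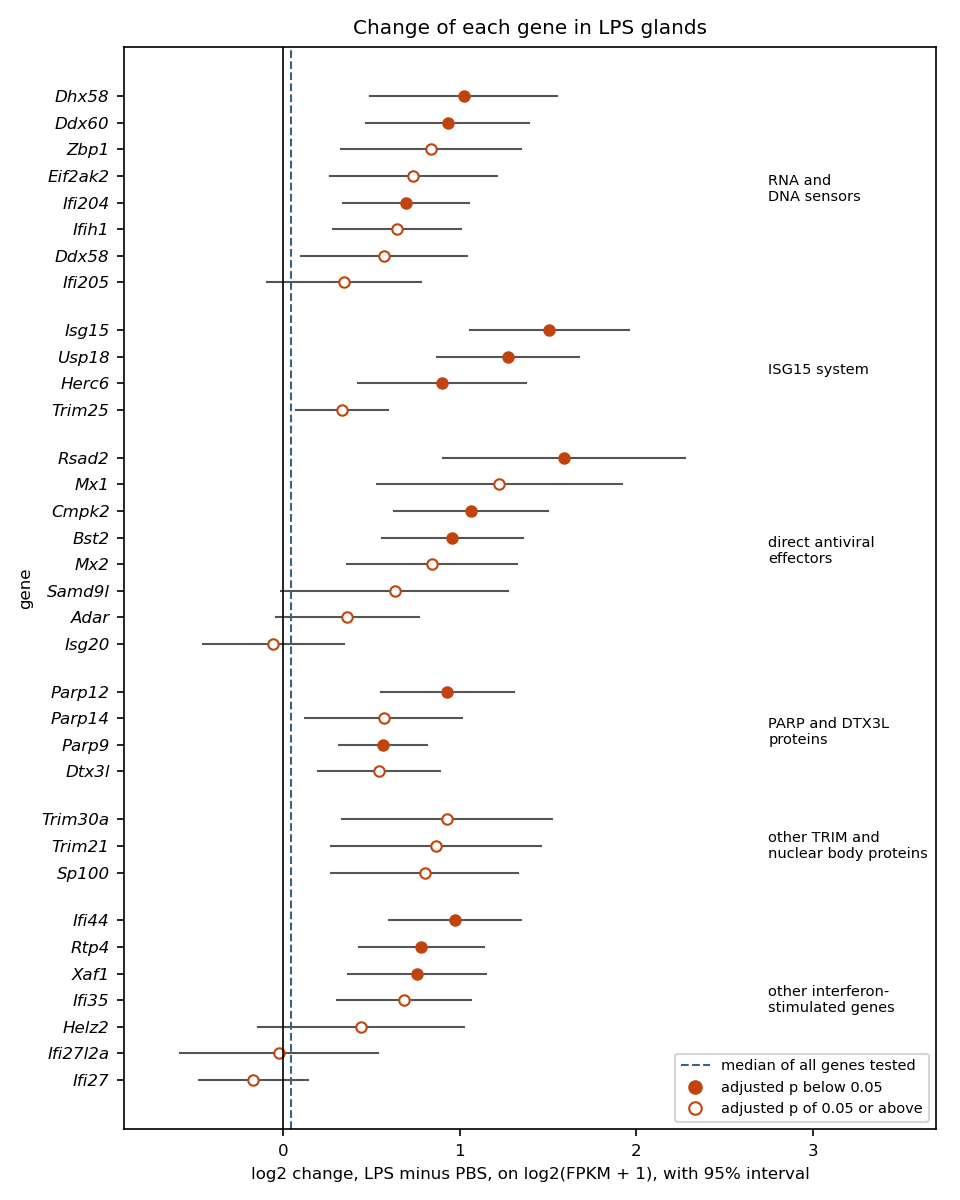
Change of each of the 34 genes, LPS minus PBS, on the log2(FPKM + 1) scale (x axis) with its 95% interval, by role (y axis). Filled points have an adjusted p below 0.05 by limma, open points do not, and the dashed line is the median of all genes tested, 0.05. The intervals of 27 genes lie above 0, and those of Ifi205, Isg20, Samd9l, Adar, Ifi27, Ifi27l2a and Helz2 include it.

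The change was positive for 31 of the 34 genes (91.2%), where 61.4% of all genes tested had a positive change, and for 17 of the 20 that were not called. On reads recovered from the deposited FPKM, edgeR called 18 of the 34 higher (2.67% of all genes) and DESeq2 called 24 (4.98%), and neither called any lower. The authors' deposited table lists 23 of the 34, all higher in LPS glands, where 2.64% of the genes above 0 are listed as higher. Those 23 include the 14 called here and add Ifih1, Zbp1, Eif2ak2, Mx1, Mx2, Trim21, Trim30a, Sp100 and Ifi35. In the authors' deposited table their log2 fold changes run from 0.482 for Parp9 to 1.29 for Isg15.

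The count of 14 rested on which glands were present. It is given here with the share of all genes then called higher, which moved as well. It was 22 without LPS gland 1 (3.72% of all genes), 6 without LPS gland 2 (1.04%), 7 without LPS gland 3 (1.4%), 11 without LPS gland 4 (2.36%) and 9 without LPS gland 5 (1.9%). It was 6 without PBS gland 1 (1.16%), 16 without PBS gland 2 (2.63%), 18 without PBS gland 3 (2.58%), 7 without PBS gland 4 (1.11%) and 7 without PBS gland 5 (1.57%). Isg15, Usp18, Cmpk2, Bst2, Parp12 and Ifi44 were called whichever gland was left out, and the change of 31 genes stayed positive throughout. For Cmpk2, Bst2 and Parp12 this was by a hair, with limma adjusted p-values of up to 0.0495, 0.05 (rounded) and 0.0494. For Isg15, Usp18 and Ifi44 the highest were 0.013, 0.0165 and 0.0387. Without LPS gland 2 or without PBS gland 1, the calls of Dhx58, Ddx60, Ifi204, Herc6, Rsad2, Parp9, Rtp4 and Xaf1 were all lost. Without LPS gland 3 or PBS gland 5 the calls of the same genes other than Rsad2 were lost, and without PBS gland 4 those other than Rtp4. Without LPS gland 4 or LPS gland 5 those of Dhx58, Ddx60, Ifi204, Herc6 and Xaf1 were lost, without PBS gland 2 that of Herc6, and without PBS gland 3 that of Ifi204. The highest limma adjusted p reached in this way was 0.117 for Dhx58, 0.102 for Ddx60, 0.117 for Ifi204, 0.128 for Herc6, 0.0579 for Rsad2, 0.0618 for Parp9, 0.0642 for Rtp4 and 0.117 for Xaf1.

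The ISG15 system had the highest median change of the 6 role groups, 1.09 (log2) over 4 genes, with Isg15, Usp18 and Herc6 called. Isg15 (ENSMUSG00000035692, minus strand of chromosome 4, 156199424 to 156200818, mm10) is conjugated to newly made proteins in cells exposed to interferon. It was at 115, 232, 198, 124 and 139.6 FPKM in LPS glands 1 to 5 and at 37.2, 59.3, 71.0, 54.1 and 54.7 FPKM in PBS glands 1 to 5. The lowest LPS gland was above the highest PBS gland, and glands 2 and 3 stood highest in the LPS group. The ratio of the means was 2.93, the log2 change 1.51 ± 0.21 (SE) and the limma adjusted p 0.00371, the smallest among the 34 genes.

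Usp18 (ENSMUSG00000030107, chromosome 6, 121245906 to 121270916, plus strand), the protease that removes ISG15 from its targets and damps type I interferon receptor signalling, was at 33.5, 63.9, 38.6, 35.6 and 49.9 FPKM in LPS glands 1 to 5 and at 12.1, 16.4, 19.6, 17.7 and 21.7 FPKM in PBS glands 1 to 5. The groups did not overlap, and the top LPS glands were 2 and 5, where Isg15 had 2 and 3. Its log2 change was 1.27 ± 0.19 (SE), with an adjusted p of 0.00506. Herc6, the main ISG15 ligase of the mouse, averaged 13.6 ± 3.94 FPKM in LPS glands and 6.82 ± 2.13 FPKM in PBS glands (SD, n = 5 each), a log2 change of 0.90 ± 0.22 (SE; limma adjusted p 0.0449). Of the 50-base stretches of its exons, 12.5% occur in other genes, the overlapping predicted gene Gm45193 foremost, so some of its reads could belong to either. Trim25, a ubiquitin ligase that acts on RIG-I and is itself interferon-induced, was at 39.8, 46.4, 38.8, 42.9 and 46.3 FPKM in LPS glands 1 to 5 and at 26.5, 34.7, 43.9, 30.4 and 35.3 FPKM in PBS glands 1 to 5. PBS gland 3 lay above LPS glands 1, 3 and 4, and the log2 change of 0.33, with a 95% interval of 0.07 to 0.60, had an adjusted p of 0.177. Outside the 34 genes, Ube2l6, the conjugating enzyme for ISG15, was also called (18.2 ± 6.66 FPKM in LPS glands, 8.25 ± 1.57 FPKM in PBS glands, SD, n = 5 each; adjusted p 0.0199). That call was lost without LPS gland 2, PBS gland 1 or PBS gland 4, with an adjusted p of up to 0.0615. Uba7, the activating enzyme, had a log2 change of 0.41 (95% interval -0.12 to 0.93) and was not called.

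**Figure D2:**
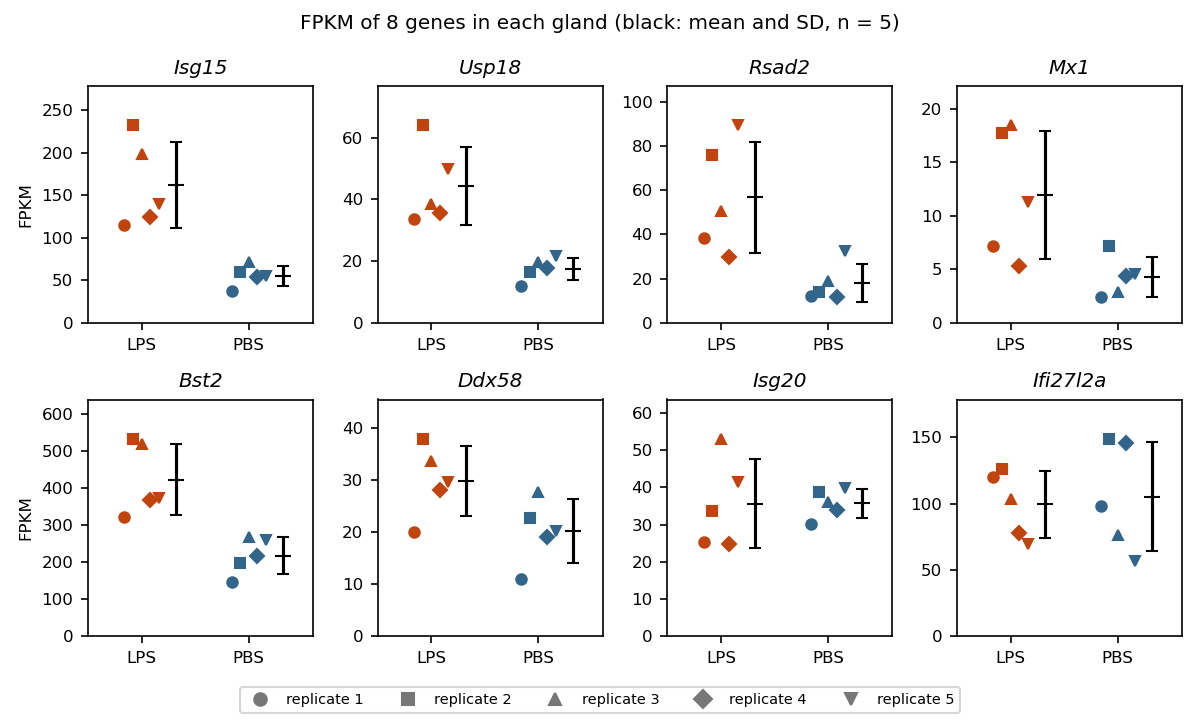
FPKM (y axis, from 0) of 8 of the genes in the LPS and PBS glands, 1 point a gland with a symbol for each replicate number, and black bars for the mean and SD (n = 5 each). Isg15, Usp18 and Bst2 have no overlap between the groups, Rsad2, Mx1 and Ddx58 overlap in part, and Isg20 and Ifi27l2a overlap over most of their range.

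Among the direct effectors, Rsad2, Cmpk2 and Bst2 were called out of 8 genes, with a median change of 0.90. Viperin, the product of Rsad2 (ENSMUSG00000020641, chromosome 12, 26442753 to 26456452, minus strand), converts CTP into a nucleotide that ends viral RNA chains. Rsad2 was at 38.3, 75.8, 50.4, 29.8 and 89.2 FPKM in LPS glands 1 to 5 and at 12.4, 14.0, 18.9, 11.9 and 32.7 FPKM in PBS glands 1 to 5. LPS glands 5 and 2 were highest, and LPS gland 4 fell below PBS gland 5, the highest of its group. The ratio of the means was 3.16 and the limma adjusted p 0.0188.

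Cmpk2, a mitochondrial nucleotide kinase that lies beside Rsad2, averaged 39.7 ± 10.9 FPKM in LPS glands and 18.2 ± 4.14 FPKM in PBS glands (SD, n = 5 each), with a log2 change of 1.06 ± 0.20 (SE; adjusted p 0.0157). In the GENCODE M21 annotation the pair lies head to head on chromosome 12 with starts 12752 bases apart. LPS gland 4 was the lowest LPS gland for both, at 29.8 FPKM of Rsad2 and 23.9 FPKM of Cmpk2, and PBS gland 5 the highest PBS gland, at 32.7 FPKM of Rsad2 and 23.2 FPKM of Cmpk2. Bst2 (tetherin, which holds budding virions at the cell surface; ENSMUSG00000046718, chromosome 8, 71534264 to 71537437, minus strand) had the highest level of the 34 genes in both groups. It was at 323, 533, 520.2, 367 and 375 FPKM in LPS glands 1 to 5 and at 147, 197, 269, 217 and 262 FPKM in PBS glands 1 to 5. No PBS gland reached the lowest LPS gland, and the log2 change was 0.96 ± 0.18 (SE; adjusted p 0.0168).

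The Mx genes encode dynamin-like GTPases that trap incoming viral ribonucleoprotein. Most inbred laboratory strains of mice, BALB/c among them, carry Mx1 alleles that make no full-length protein, and the annotation classes Mx2 as a polymorphic pseudogene. Their transcripts were measured all the same. Mx1 (ENSMUSG00000000386, chromosome 16, 97447035 to 97462907, minus strand) was at 7.19, 17.7, 18.4, 5.29 and 11.3 FPKM in LPS glands 1 to 5 and at 2.42, 7.21, 2.90, 4.41 and 4.54 FPKM in PBS glands 1 to 5. LPS glands 2 and 3 stood apart at the top, while LPS gland 4 and, by a small margin, LPS gland 1 were below PBS gland 2. Its ratio of means, 2.79, was exceeded by those of Rsad2 and Isg15 alone among the 34 genes, and its spread was wide: the log2 change of 1.23 had a 95% interval of 0.53 to 1.92 and a limma adjusted p of 0.0598. edgeR, at an adjusted p of 0.0311, and DESeq2, at 0.0088, did call it. Mx2 averaged 29.5 ± 7.97 FPKM in LPS glands and 16.1 ± 4.69 FPKM in PBS glands (SD, n = 5 each), with an adjusted p of 0.0619. The exons of Mx1 share 4.37% of their 50-base stretches with other genes, Mx2 foremost.

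Isg20, Samd9l and Adar were the other effectors that were not called. Isg20, an exonuclease that degrades RNA, was at 25.3, 33.7, 53.0, 24.9 and 41.5 FPKM in LPS glands 1 to 5 and at 30.1, 38.8, 36.1, 33.8 and 39.8 FPKM in PBS glands 1 to 5. LPS glands 3 and 5 were the highest of all 10 glands and LPS glands 4 and 1 the lowest, around a mean of 35.7 ± 11.8 FPKM in LPS glands and 35.7 ± 3.95 FPKM in PBS glands (SD, n = 5 each). Its log2 change of -0.05 had a 95% interval of -0.45 to 0.34. Samd9l, an antiviral factor that restrains translation, had a log2 change of 0.63 (95% interval -0.01 to 1.27). Adar, which edits adenosine to inosine in double-stranded RNA, had a log2 change of 0.36 (95% interval -0.04 to 0.77).

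The sensors of foreign RNA and DNA had a median change of 0.72, with 8 of 8 positive where 61.4% of all genes tested were, and Dhx58, Ddx60 and Ifi204 were called. Dhx58 (ENSMUSG00000017830, chromosome 11, 100694884 to 100704271, minus strand) encodes LGP2, the RIG-I-like receptor without signalling domains that modulates the other two. It was at 9.40, 24.9, 20.1, 18.6 and 17.1 FPKM in LPS glands 1 to 5 and at 4.47, 10.7, 10.003, 7.62 and 8.52 FPKM in PBS glands 1 to 5. LPS glands 2 to 5 were above every PBS gland and LPS gland 1 was not. The log2 change was 1.02 ± 0.24 (SE; limma adjusted p 0.0421).

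Both RIG-I-like receptors that signal through MAVS missed the threshold. Ddx58, which encodes RIG-I, averaged 29.9 ± 6.73 FPKM in LPS glands and 20.2 ± 6.14 FPKM in PBS glands (SD, n = 5 each), with a log2 change of 0.57 and an adjusted p of 0.198. Ifih1, which encodes MDA5, averaged 30.1 ± 4.58 FPKM in LPS glands and 19.2 ± 4.94 FPKM in PBS glands (SD, n = 5 each), with a log2 change of 0.65 and an adjusted p of 0.0571. The difference in change between Dhx58 and either of the other genes was not tested. Ddx60, a helicase linked to the RIG-I pathway, averaged 7.86 ± 2.12 FPKM in LPS glands and 3.66 ± 1.21 FPKM in PBS glands (SD, n = 5 each; adjusted p 0.0344). Eif2ak2 encodes PKR, the kinase that halts translation when it binds double-stranded RNA. Its log2 change was 0.74 (95% interval 0.27 to 1.21; adjusted p 0.0897).

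Zbp1, a sensor of Z-form nucleic acid that can start necroptosis, averaged 30.6 ± 10.8 FPKM in LPS glands and 16.3 ± 4.19 FPKM in PBS glands (SD, n = 5 each; adjusted p 0.079). Of the 5 genes listed as its partners in cell death, Mlkl, the pore-forming executor of necroptosis, was called (log2 change 1.00, adjusted p 0.0213). Without LPS gland 2, LPS gland 3, PBS gland 1 or PBS gland 4 that call was lost, with an adjusted p of up to 0.0662. Ripk3, the kinase between them, had a log2 change of 0.48 (95% interval 0.15 to 0.81; adjusted p 0.112). Ifi204 and Ifi205 belong to the mouse AIM2-like family, whose members bind DNA. Ifi204 averaged 9.96 ± 2.77 FPKM in LPS glands and 5.65 ± 1.01 FPKM in PBS glands (SD, n = 5 each; adjusted p 0.041). Ifi205 was at 3.78, 8.27, 7.06, 6.18 and 4.498 FPKM in LPS glands 1 to 5 and at 3.39, 6.17, 5.02, 4.69 and 2.94 FPKM in PBS glands 1 to 5. Its groups overlapped widely, and the log2 change of 0.35 had a 95% interval of -0.09 to 0.78. Their sequences are not unique: 20.02% of the 50-base stretches of Ifi204 and 18.6% of those of Ifi205 occur in other genes, Ifi211 foremost, so reads could be divided among the copies.

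Of the PARP group, Parp9 and Parp12 were called and Dtx3l and Parp14 were not. Parp12, which adds ADP-ribose to proteins and restricts several RNA viruses, was at 37.0, 62.4, 61.9, 50.4 and 52.1 FPKM in LPS glands 1 to 5 and at 19.2, 26.4, 37.8, 25.2 and 28.2 FPKM in PBS glands 1 to 5. Only LPS gland 1 was not above every PBS gland, and the log2 change was 0.93 ± 0.17 (SE; limma adjusted p 0.0157). Parp9 and Dtx3l encode partners in a complex with ubiquitin ligase activity. Parp9 averaged 61.4 ± 6.28 FPKM in LPS glands and 41.4 ± 6.82 FPKM in PBS glands (SD, n = 5 each), with a log2 change of 0.57 and an adjusted p of 0.0197. Dtx3l was at 27.5, 43.9, 39.7, 35.4 and 36.5 FPKM in LPS glands 1 to 5 and at 18.7, 22.2, 35.4, 23.5 and 25.3 FPKM in PBS glands 1 to 5. Apart from LPS gland 1, LPS gland 4 alone fell short of PBS gland 3, by less than the rounding shows, and the log2 change of 0.54 ± 0.16 (SE) had an adjusted p of 0.087. The genes lie head to head on chromosome 16 with 458 exon bases in common on opposite strands. No source states whether counting used the strand, so reads there cannot be told apart. Parp14, 54966 bases from Dtx3l, averaged 55.2 ± 10.7 FPKM in LPS glands and 37.8 ± 13.1 FPKM in PBS glands (SD, n = 5 each), with a log2 change of 0.57 (95% interval 0.12 to 1.02; adjusted p 0.175).

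None of Trim21, Trim30a and Sp100 was called by limma, and their median change was 0.87. All 3 were higher at an unadjusted limma p below 0.05, where 12.4% of all genes tested were. DESeq2 called all 3 (adjusted p 0.0165, 0.00289 and 0.0055), where it called 4.98% of all genes higher, and edgeR called Trim30a alone. Trim21, a ubiquitin ligase and cytosolic antibody receptor, averaged 22.9 ± 8.51 FPKM in LPS glands and 12.1 ± 5.12 FPKM in PBS glands (SD, n = 5 each; limma adjusted p 0.114). Trim30a, a TRIM protein of the mouse that restrains NF-kB signalling, was at 11.2, 26.5, 33.8, 21.9 and 18.3 FPKM in LPS glands 1 to 5 and at 6.44, 12.9, 13.9, 14.2 and 7.74 FPKM in PBS glands 1 to 5. LPS glands 2 to 5 exceeded every PBS gland and LPS gland 1 lay under PBS glands 2, 3 and 4. Its log2 change of 0.93 had an adjusted p of 0.0913 by limma and 0.0497 by edgeR. Sp100, a scaffold of PML nuclear bodies, was at 12.6, 28.4, 29.6, 18.7 and 21.04 FPKM in LPS glands 1 to 5 and at 8.004, 18.4, 11.1, 14.4 and 9.14 FPKM in PBS glands 1 to 5. PBS gland 2 came close to LPS gland 4 and exceeded LPS gland 1, and the log2 change was 0.80 (95% interval 0.27 to 1.33; limma adjusted p 0.1).

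The remaining genes have looser ties to known antiviral steps. Ifi44, a cytoplasmic protein of the interferon response, was at 27.2, 48.9, 49.0, 41.2 and 36.3 FPKM in LPS glands 1 to 5 and at 14.6, 18.3, 25.9, 20.7 and 20.5 FPKM in PBS glands 1 to 5. The groups did not overlap, and the log2 change was 0.97 ± 0.17 (SE; limma adjusted p 0.0122). Rtp4, an interferon-induced receptor chaperone, averaged 73.2 ± 13.7 FPKM in LPS glands and 42.4 ± 9.65 FPKM in PBS glands (SD, n = 5 each; adjusted p 0.0218). Xaf1, an antagonist of the apoptosis inhibitor XIAP, averaged 24.3 ± 4.84 FPKM in LPS glands and 14.1 ± 3.61 FPKM in PBS glands (SD, n = 5 each; adjusted p 0.041). Ifi35 also had no overlap, at 22.5 to 33.4 FPKM in LPS glands and 10.3 to 21.2 FPKM in PBS glands, and its adjusted p was 0.0562. Helz2, a helicase and nuclear coactivator, had a log2 change of 0.44 (95% interval -0.14 to 1.03).

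Ifi27 and Ifi27l2a encode small hydrophobic proteins of mitochondria and the nuclear envelope and lie tail to tail on chromosome 12, 1927 bases apart. Ifi27 was at 103, 76.6, 103, 74.5 and 60.3 FPKM in LPS glands 1 to 5 and at 82.9, 97.4, 101, 96.5 and 84.2 FPKM in PBS glands 1 to 5. LPS glands 2, 4 and 5 were below every PBS gland, LPS glands 1 and 3 were above every PBS gland, and the log2 change was -0.17 (95% interval -0.48 to 0.14). Ifi27l2a was at 120.1, 126, 103, 77.5 and 69.7 FPKM in LPS glands 1 to 5 and at 97.9, 149, 76.0, 145 and 56.9 FPKM in PBS glands 1 to 5. PBS glands 2 and 4 were the highest of all 10 glands and PBS gland 5 the lowest, so the groups overlapped over most of their range. Its log2 change of -0.02 had a 95% interval of -0.58 to 0.54. The 9 B and T lymphocyte markers summed to 0.606 to 19.4 FPKM in LPS glands, against 59.5 and 27.0 FPKM in the same PBS glands 2 and 4 and 0.916 to 1.95 FPKM in PBS glands 1, 3 and 5. Without LPS gland 3, the highest LPS gland in those markers, and PBS glands 2 and 4, the log2 change of Ifi27l2a was 0.34. Leaving out the PBS glands highest in Ifi27l2a raises its change by itself, so this value cannot show a link with the markers. The part of lymphocytes in its level was not tested.

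The promoters of Isg15, Bst2 and Rsad2 are shown as examples of called genes with an ISRE core. Those of Cmpk2 and Isg20 are examples without one, Cmpk2 being called and Isg20 not. Ddx60, called as well, has matches at -53 and -19 but is not shown. The sequences are RefSeq's for GRCm38.p6, up to 250 bases before the gene's start, 5′ to 3′ on the gene's strand, with GAAANNGAAA or its reverse complement in capitals. Isg15 is chr4:156200819-156201068, minus strand, Bst2 is chr8:71537473-71537722, minus strand, Rsad2 is chr12:26456453-26456702, minus strand, Cmpk2 is chr12:26468965-26469203, plus strand, and Isg20 is chr7:78913174-78913423, plus strand.
Isg15: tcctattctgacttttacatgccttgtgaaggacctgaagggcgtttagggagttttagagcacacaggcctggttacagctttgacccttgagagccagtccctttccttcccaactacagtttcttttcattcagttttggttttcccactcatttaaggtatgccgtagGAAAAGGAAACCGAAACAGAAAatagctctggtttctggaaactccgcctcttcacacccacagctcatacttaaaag
Bst2: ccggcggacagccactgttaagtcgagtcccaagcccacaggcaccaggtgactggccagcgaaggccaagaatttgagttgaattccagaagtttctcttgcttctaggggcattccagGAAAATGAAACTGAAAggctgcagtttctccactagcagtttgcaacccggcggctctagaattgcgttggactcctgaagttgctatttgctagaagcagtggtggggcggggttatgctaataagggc
Rsad2: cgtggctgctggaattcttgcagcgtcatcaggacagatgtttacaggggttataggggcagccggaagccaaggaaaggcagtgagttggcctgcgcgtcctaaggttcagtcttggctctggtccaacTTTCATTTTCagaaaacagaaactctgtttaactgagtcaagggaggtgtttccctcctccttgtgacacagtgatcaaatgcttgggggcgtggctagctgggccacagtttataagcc
Cmpk2: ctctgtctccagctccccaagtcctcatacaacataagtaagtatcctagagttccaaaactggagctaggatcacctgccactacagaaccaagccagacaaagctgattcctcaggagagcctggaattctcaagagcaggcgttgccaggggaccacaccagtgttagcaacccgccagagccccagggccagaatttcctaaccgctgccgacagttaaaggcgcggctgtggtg
Isg20: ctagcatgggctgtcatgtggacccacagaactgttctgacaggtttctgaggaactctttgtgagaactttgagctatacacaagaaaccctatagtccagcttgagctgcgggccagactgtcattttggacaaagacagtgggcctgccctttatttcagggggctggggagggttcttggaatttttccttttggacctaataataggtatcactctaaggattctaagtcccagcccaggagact
In Isg15, 3 matches begin at positions -78, -72 and -66 relative to the start and overlap each other, so that they form an unbroken run. Bst2 has an overlapping pair at -130 and -124, counted from RefSeq's start, which lies 35 bases before the start in the authors' coordinates, and Rsad2 has a match on the other strand at -120.

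Of the 34 genes, 23 have a promoter in that table, 250 bases before to 50 after the start. Searched on both strands, GAAANNGAAA occurred in 10 of the 23 (43.5%): Bst2, Ddx58, Ddx60, Eif2ak2, Ifi205, Ifih1, Isg15, Rsad2, Trim21 and Trim30a. It occurred in 3.99% of all 27025 genes with windows of that length. It was in 4 of the 9 called genes with a promoter and in 6 of the 14 that were not called. TTCNNNGAA, the core of the interferon gamma activated site, occurred in 5 of the 23 (21.7%), Adar, Bst2, Eif2ak2, Ifi35 and Isg20, and in 9.55% of all genes. A match describes letters in these windows and shows no binding.

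The same glands were high or low for most of the 34 genes. LPS gland 1 was the lowest LPS gland for 25 of the 34 genes, and PBS gland 1 was the lowest PBS gland for 30 and the lowest of all 10 glands for 28. LPS gland 1 lay above the highest PBS gland for 12 genes, against 31 genes for LPS gland 2, 32 for LPS gland 3, 21 for LPS gland 4 and 29 for LPS gland 5. Relative to the PBS mean, the median over the 34 genes was 0.24, 1.14, 1.10, 0.62 and 0.71 (log2) in LPS glands 1 to 5, and -0.50, 0.13, 0.34, 0.04 and 0.02 in PBS glands 1 to 5. The genes of a library share its scaling and composition. Gland 1 was thus the lowest for most genes in both groups, and the labels do not state whether glands of the same number share an animal. Under median-of-ratios scaling, rescaling outside the milk proteins and quantile normalization, LPS gland 1 was lowest of its group for 25, 28 and 26 genes and PBS gland 1 for 26, 30 and 30.

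**Figure D3:**
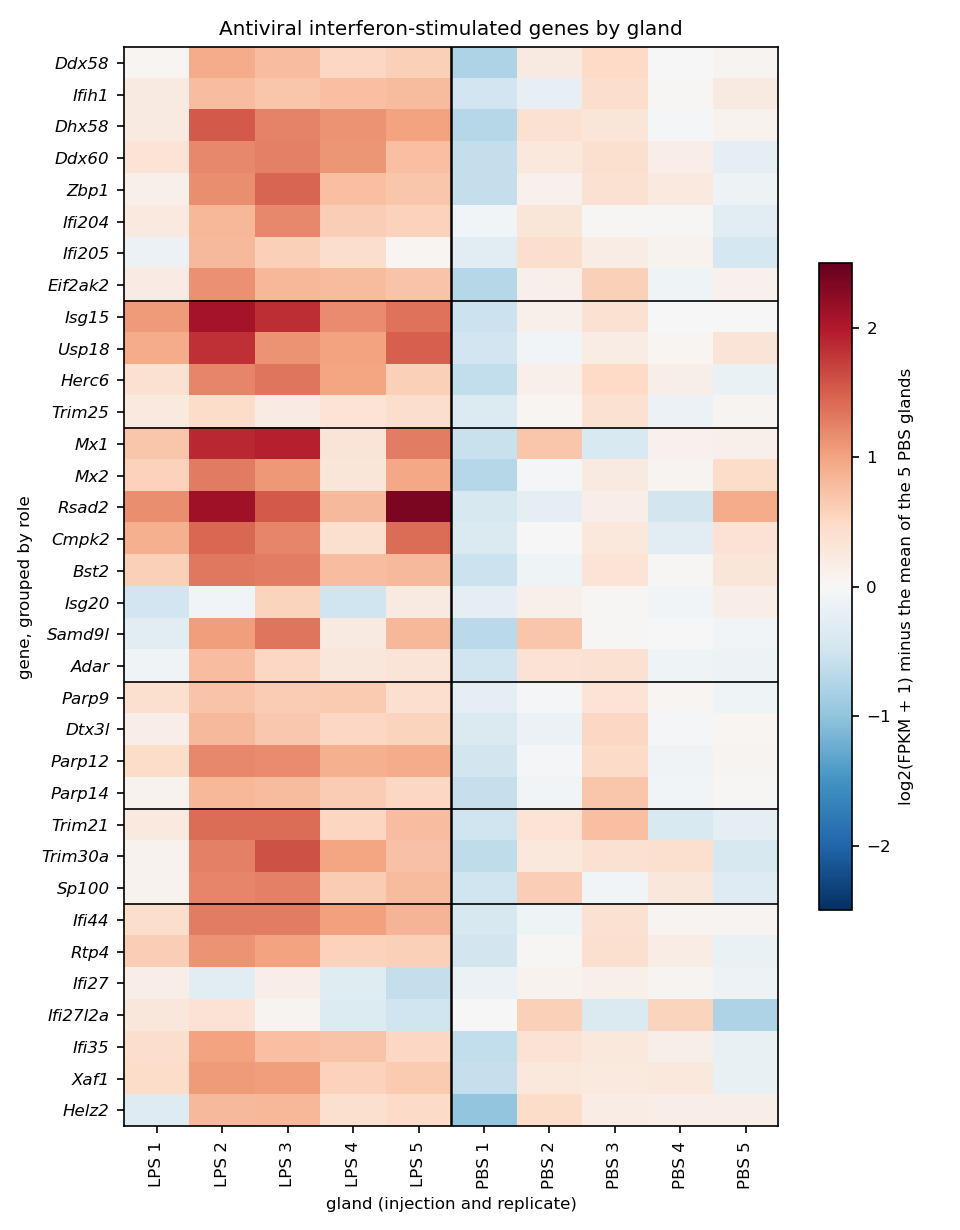
The 34 genes (rows, by role) in each of the 10 glands (columns, LPS then PBS), coloured by log2(FPKM + 1) minus the mean of the 5 PBS glands. LPS glands 2 and 3 are the reddest columns, with medians of 1.14 and 1.10, and PBS gland 1 is the bluest, with a median of -0.50.

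Which LPS glands led differed between genes. LPS glands 2 and 3 were the top pair for 25 of the 34 genes. For 5 genes, Ifih1, Usp18, Trim25, Rsad2 and Cmpk2, the top pair was LPS glands 2 and 5. No test was run on this order.

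Among marker transcripts of immune cells, those of neutrophils differed between the groups, and single glands stood apart. The 8 neutrophil markers summed to 11.7, 54.6, 20.9, 16.5 and 41.1 FPKM in LPS glands 1 to 5 and to 6.35, 10.8, 5.39, 7.22 and 6.87 FPKM in PBS glands 1 to 5. Of the 4 that passed the filter, Csf3r, Cxcr2 and Retnlg were called higher, with log2 changes of 1.34, 1.19 and 1.36, and Mrgpra2a was at 0 in some libraries. Cxcr2 passed the filter only through the group where it was high, at 1.67 to 6.24 FPKM in LPS glands and 0.291 to 1.11 FPKM in PBS glands. Its call is therefore no independent sign of a rise. With 1 gland left out, the call of Csf3r was kept without LPS gland 1, LPS gland 4 or PBS gland 2, that of Cxcr2 without LPS gland 1 or LPS gland 4 and that of Retnlg without LPS gland 1 or PBS gland 2. Each was lost without any other gland, with limma adjusted p-values of up to 0.0887 for Csf3r, 0.125 for Cxcr2 and 0.119 for Retnlg. With FPKM rescaled outside the milk proteins each call was lost too (limma adjusted p 0.0533, 0.0614 and 0.0591). That of Cxcr2 was also lost under median-of-ratios scaling (0.0562) and quantile normalization (0.0554), where the others were kept. edgeR and DESeq2 kept every one of these calls. LPS glands 2 and 5, highest in these markers, were also the top pair for Usp18 and Rsad2. The 9 monocyte and macrophage markers summed to 31.8 to 72.7 FPKM in LPS glands and 40.9 to 114 FPKM in PBS glands, none at 0 in any library, and 0 of the 7 tested were called by limma, with 0 at an unadjusted p below 0.05. The most abundant, C1qa and C1qb, had log2 changes of -0.55 (95% interval -1.20 to 0.09) and -0.44 (-1.07 to 0.18). The 4 plasmacytoid dendritic cell markers summed to 0.331 to 1.74 FPKM in LPS glands and 0.499 to 6.10 FPKM in PBS glands, with Pacsin1 at 0 in some libraries and none above the filter. Of the 9 B and T lymphocyte markers none passed the filter either, and 7 were at 0 in at least 1 library.

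Krt8 and Krt5, keratins of the epithelium itself, were called higher too. They were 1 of 7 luminal and 1 of 4 myoepithelial markers, where 2.63% of all genes tested were called higher. Of the 7 luminal markers 3 had a positive and 4 a negative change, with a median of -0.07. At an unadjusted limma p below 0.05, 2 of the 7 were higher and 2 lower, against 12.4% and 4.07% of all genes tested. The 4 myoepithelial markers had a median change of 0.38. Of the 7 luminal markers Krt8 was called (188 ± 34.6 FPKM in LPS glands, 129.5 ± 14.2 FPKM in PBS glands, SD, n = 5 each; limma adjusted p 0.0445), while the change of Csn2 was -0.62 (95% interval -1.06 to -0.17; adjusted p 0.134). With 1 gland left out the call of Krt8 was kept without LPS gland 1 or PBS gland 2 and lost otherwise (adjusted p of up to 0.119). It was also lost under median-of-ratios scaling (limma adjusted p 0.072), quantile normalization (0.133) and with FPKM rescaled outside the milk proteins (0.212). edgeR gave Krt8 an adjusted p of 0.0544 and DESeq2 one of 0.00699. The 4 myoepithelial markers, none at 0 in any library, summed to 350.0 to 451 FPKM in LPS glands and 263 to 355 FPKM in PBS glands, and Krt5 was called (19.8 ± 2.33 FPKM in LPS glands, 12.8 ± 1.77 FPKM in PBS glands, SD, n = 5 each; adjusted p 0.0163). The call of Krt5 was lost without LPS gland 2 or PBS gland 4 (limma adjusted p of up to 0.0516) and with FPKM rescaled outside the milk proteins (0.0891). Endothelial Pecam1 and Cdh5, with log2 changes of 0.04 and 0.03, and adipocyte Adipoq and Plin1, with -0.15 and 0.05, were not called, and the 95% interval of each included 0.

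Counts without the glands that stand apart in these markers were added after the data were seen. Without LPS glands 2 and 5, limma called 2 of the 34 genes, Isg15 and Usp18, and 0.321% of all genes, as higher. At a p below 0.05 before adjustment 24 of the 34 were higher and 0 lower, against 9.33% and 2.37% of all genes, with a median change of 0.68 over the 34. Without LPS gland 3 and PBS glands 2 and 4, it called 0 of the 34 and 0.238% of all genes as higher, and edgeR called Isg15 alone of the 34. At a p below 0.05 before adjustment 24 of the 34 had a positive change and 0 a negative one, against 11.1% and 2.49% of all genes, with a median of 0.80 over the 34. With all glands the median change was 0.77, and fewer glands entered each of these fits. LPS gland 2 was the highest LPS gland for 19 of the 34 genes, so leaving it out lowers their change by itself. The counts without LPS glands 2 and 5 therefore cannot show a link with the neutrophil markers. The part of neutrophils and lymphocytes in the changes was not tested.

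**Figure D4:**
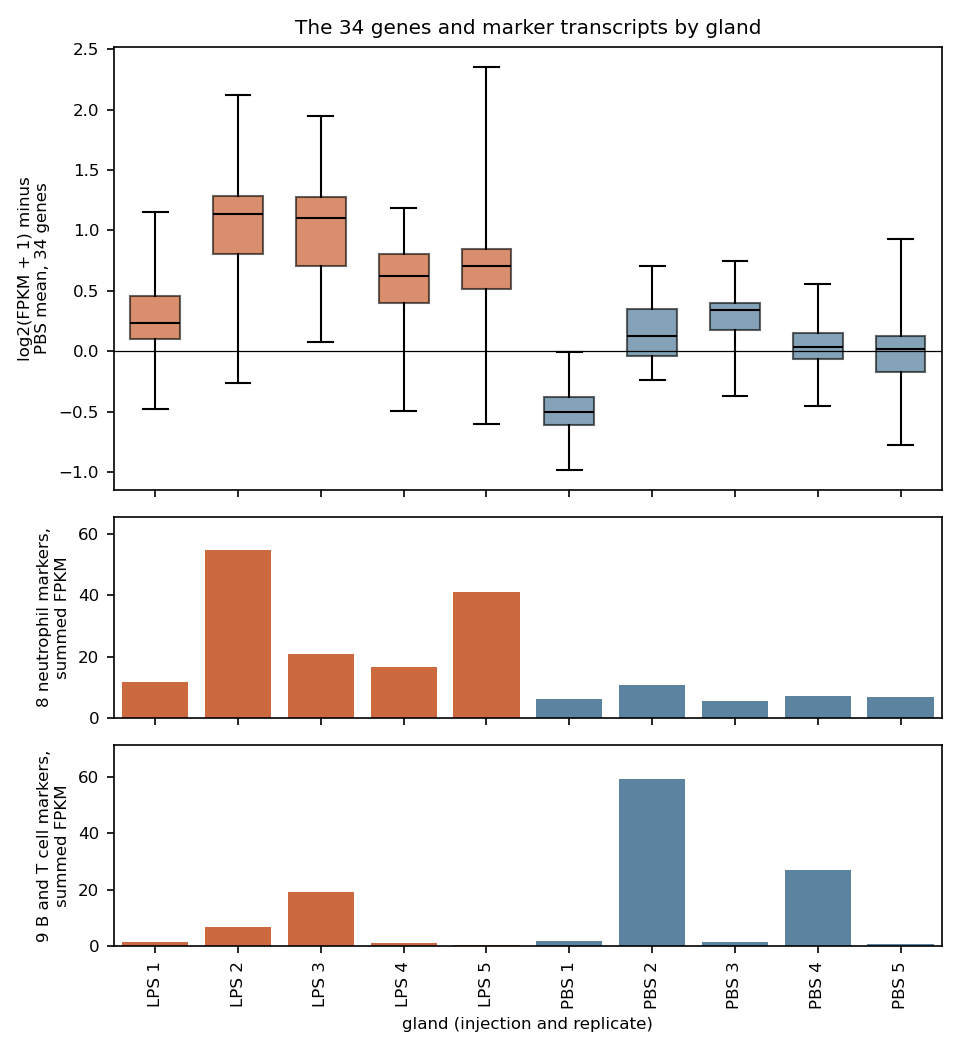
Top, log2(FPKM + 1) minus the PBS mean for the 34 genes in each gland (box, quartiles and median; whiskers, lowest and highest gene). Below, summed FPKM of 8 neutrophil markers and of 9 B and T lymphocyte markers in the same glands: the neutrophil markers are highest in LPS glands 2 and 5 (54.6 and 41.1 FPKM), the lymphocyte markers in PBS glands 2 and 4 (59.5 and 27.0 FPKM).

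The milk protein genes took a smaller share of FPKM in most LPS glands, 34.9, 32.2, 32.6, 37.2 and 44.3% in LPS glands 1 to 5 against 49.9, 40.4, 38.6, 46.8 and 49.5% in PBS glands 1 to 5. FPKM values of a library share 1 total, so levels outside the milk proteins depend on that share. With FPKM rescaled outside the milk proteins, the median change of all genes tested moved by -0.18 to -0.13. The median of the 34 genes was then 0.56, which is 0.70 above that of all genes, against 0.72 above it before. limma called 8 of the 34 higher on that scale, with the calls of Ddx60, Dhx58, Herc6, Ifi204, Parp9 and Xaf1 lost. Across all genes it called 128 higher and 348 lower there, against 300 higher and 69 lower on FPKM as deposited. The higher share of calls was 81.3% as deposited, 68.8% under median-of-ratios scaling, 61.6% under quantile normalization and 26.9% with that rescaling.

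Few reads of the inducing interferons were recovered at 12 h. Ifna2, Ifna4, Ifnl2 and Ifnl3 were listed at 0 in all 10 glands, and a single read of Ifnb1 was recovered, from LPS gland 3. Trex1, a nuclease of the DNA sensing list that many cells express, is listed at 0 throughout as well, so a listed 0 may be a failed estimate. Ifne had 0 to 9 reads in LPS glands and 1 to 7 in PBS glands, and Ifnk had 0 to 7 reads in LPS glands and 0 to 4 in PBS glands. Ifng had 24 reads in LPS gland 3 and at most 1 in the other LPS glands, against 0 to 6 reads in PBS glands. Of the 6 genes among interferons and their receptors that passed the filter, Ifngr1, a chain of the interferon gamma receptor, was called (116 ± 12.5 FPKM in LPS glands, 85.4 ± 6.99 FPKM in PBS glands, SD, n = 5 each; adjusted p 0.0308). That call was kept in 2 of the 10 fits with 1 gland left out, without LPS gland 1 and without LPS gland 2, and reached an adjusted p of 0.0769 in the others. It was lost under median-of-ratios scaling (adjusted p 0.164), quantile normalization (0.214), the milk rescaling (0.326), edgeR (0.138) and DESeq2 (0.0734).

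Among 13 genes, of the JAK, STAT and IRF families with the inhibitor Socs1 added, Irf7, the interferon-induced factor that amplifies interferon transcription, was called. It averaged 126 ± 33.8 FPKM in LPS glands and 60.3 ± 12.2 FPKM in PBS glands (SD, n = 5 each), a log2 change of 1.03 ± 0.20 (SE; limma adjusted p 0.0181), and its call was lost without LPS gland 2 (0.0564). Stat2 and Irf9, which encode parts of the ISRE-binding complex, were not called: the log2 change was 0.48 for Stat2 (95% interval -0.03 to 1.00) and 0.18 for Irf9 (-0.05 to 0.41). The median of the 13 genes was 0.18.

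None of the 9 tested genes listed for signalling below the RNA sensors was called by limma, and their median change was 0.06. The list also holds Tlr3, itself a sensor of RNA. At a p below 0.05 before adjustment 3 of the 9 were higher and 0 lower, against 12.4% and 4.07% of all genes tested. The 3 were Ikbke, Tlr3 and Rnf135, with log2 changes of 0.63, 0.47 and 0.39. Tank and Tbk1, the most abundant of the 9, had log2 changes of -0.19 (95% interval -0.46 to 0.08) and 0.15 (-0.14 to 0.43). Of the cytosolic DNA sensing genes, 0 of 7 tested were called. At an unadjusted limma p below 0.05, 1 of the 7 was higher, where 12.4% of all genes tested were. Samhd1, which depletes nucleotides, and Sting1 led that list by level, with log2 changes of 0.48 (95% interval -0.03 to 0.99) and 0.30 (-0.02 to 0.62).

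In the sister families, 5 of 9 OAS and RNase L genes were called higher, with a median of 1.05, where 2.63% of all genes tested were called higher. Oas3, Oasl1 and Oasl2 led with log2 changes of 1.83, 1.53 and 1.30. Of 9 IFIT and IFITM genes 7 were called, with a median of 1.08, led by Ifit1, Ifit3b and Ifit3 with 1.55, 1.55 and 1.25. With 1 gland left out, these counts were 4 to 6 and 4 to 7, where 1.04% to 3.72% of all genes were called higher. The call of Oasl2 was lost without LPS gland 2, PBS gland 1 or PBS gland 4 (limma adjusted p of up to 0.0604). Those of Ifit1bl2, Ifit1bl1 and Ifitm3 were kept in 2, 6 and 8 of these 10 fits, with limma adjusted p-values of up to 0.119, 0.0707 and 0.0507. Of the 11 guanylate binding proteins and immunity-related GTPases tested, limma called Gbp3 alone (76.8 ± 15.1 FPKM in LPS glands, 40.8 ± 9.46 FPKM in PBS glands, SD, n = 5 each), and 7 were higher at an unadjusted p below 0.05, where 12.4% of all genes tested were. Of that list DESeq2 called 6 (4.98% of all genes), and limma called 5 without LPS gland 1 (3.72%) and 4 without PBS gland 3 (2.58%). It called 0 without LPS gland 2 (1.04%) or with the milk rescaling, where 128 of all genes were higher. These lists share the libraries of the 34 genes and their medians were not tested against each other.

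**Figure D5:**
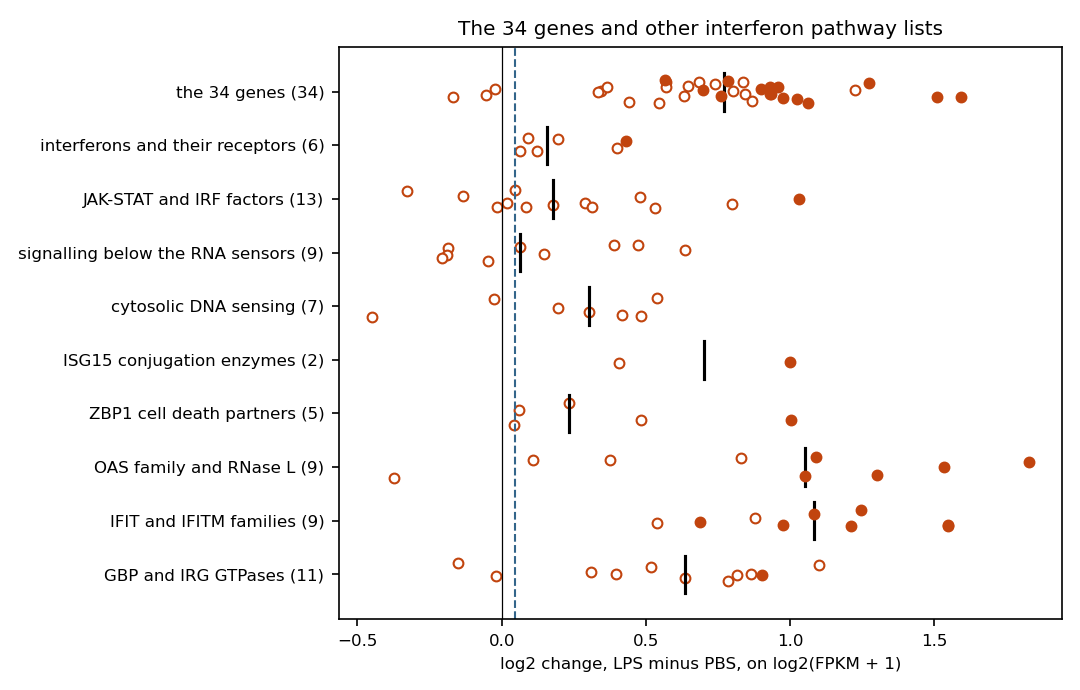
Change of each tested gene, LPS minus PBS, on the log2(FPKM + 1) scale (x axis), for the 34 genes and 9 other lists of the interferon pathway (y axis, number tested in brackets). Filled points were called by limma, black bars are medians and the dashed line is the median of all genes, 0.05; the medians are 0.77 for the 34 genes, 1.05 for the OAS list, 1.08 for the IFIT list and 0.06 for signalling below the RNA sensors.

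Parts of several genes cannot be read without doubt. For 10 of the 34, over 5% of the 50-base stretches of their exons occur in other genes: Ifi204, Ifi205, Adar (14.4%), Herc6, Rtp4 (11.6%), Ifi35 (10.4%), Dtx3l (8.09%), Parp9 (7.71%), Trim30a (5.98%) and Sp100 (5.92%). For 11 none does. Exons of 7 of the 34 overlap a gene on the opposite strand.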

How the data were processed

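Total RNA of frozen glands was isolated with an RNeasy kit and made into libraries with a NEBNext Ultra kit, per the labels' protocols. STAR 2.5, HTSeq 0.6.1, DESeq2 (version given as 2) and build mm10 were used, per the submitters' processing notes. Settings, annotation release and strandedness are not given in the sources used here.

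FPKM of 35275 Ensembl genes, made by the authors, were deposited for the 10 libraries, with 12216 genes at 0 throughout. Another deposited table is of 908 genes past the authors' adjusted p-value of 0.05. For these genes it holds raw counts per gene, per the file headers, a normalized signal per library (counts divided by a size factor of the authors), FPKM, and the authors' log2 fold changes, LPS over PBS, which are not on the scale of the changes computed here. Since counts were deposited for these genes only, the FPKM were tested in place of a count test.

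The 11414 genes with 1 FPKM or more in 5 or more libraries were tested with limma 3.58.1 (moderated test with intensity trend, two-sided, R 4.3.3) on log2(FPKM + 1), with group as the only term and Benjamini-Hochberg adjustment over all of them. Whole reads were recovered from FPKM for 23059 of the 23059 genes above 0, within 0.002 reads or a relative 2e-07. They equalled the deposited counts for 908 of 908 listed genes, and made up 99.99% of each library's depth. edgeR 4.0.16 and DESeq2 1.42.0 were run on these reads as alternatives. The functions were tested on simulated data. PCR copies cannot be told from separate molecules, so depth limits counting error only.

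The 34 genes, the other lists and the tests were chosen with earlier results of these data known. Values by gland are given for Isg15, Rsad2, Usp18 and Mx1 and for the genes of the largest and the smallest change in each role group. Bst2 and Ifi27l2a were added after their values were seen. Of each other list, up to 3 called genes of largest change, or else the 2 of highest mean FPKM among those tested, are named by rule. Stat2, Irf9, Socs1, Uba7, Ripk3, the interferons, Trex1, Wap and Csn2 were added. Gene coordinates are the authors' or, for genes outside their list, those of GENCODE M21 on the same build; of 905 listed genes in M21, 585 have identical boundaries. Of 143 entries of the other lists, 3 were not analysed here. Alternatives were 2 other pseudocounts, other filters, scalings and model settings, the count tests, a replicate block and leaving out each library.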

Additional observations from a re-analysis of the deposited data

Results flagged for a closer look

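Over the 34 genes and both groups, 68 sets of 5 glands were examined for a gland far from the others, of which chance flags about 1 in 20. Only 1 stood apart by that measure. Ifih1 had 22.1 FPKM in LPS gland 1, while the other 4 LPS glands lay between 30.7 and 33.2 FPKM. The gap to the nearest gland was 0.777 of the range of the group, above the critical value of 0.71. LPS gland 1 was also the lowest LPS gland for 25 of the 34 genes.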

How the results depend on the processing

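The 14 genes called higher stayed within 1.5 times that count under pseudocounts of 0.1 and 5 (14 and 14), a filter on mean FPKM of at least 5 (18), median-of-ratios scaling (15), quantile normalization (14), no intensity trend (13), robust variance estimation (14) and edgeR (18). The count was 3 with no filter, 8 with FPKM rescaled outside the milk proteins, 24 with DESeq2, and 6 to 22 with 1 gland left out. None of the 34 was called lower under any of these. Counts over all genes, 300 higher and 69 lower, were 101 and 25 with no filter, 128 and 348 with the milk rescaling, 546 and 300 with DESeq2, 117 to 422 and 27 to 89 with 1 gland left out. Genes lower were 115 with median-of-ratios scaling, 145 with quantile normalization and 132 with edgeR. The share of higher calls was 69.8% with edgeR and 64.5% with DESeq2. Without the LPS gland and the PBS glands highest in B and T markers, added after seeing the data, 0 of the 34 were called, and 26 genes were higher and 6 lower over all. Without the LPS glands highest in neutrophil markers, added likewise, 2 of the 34 were called, and 36 genes were higher and 5 lower over all. The cause of these differences was not tested, beyond the smaller number of libraries where glands were left out.

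Signs turned for 3 genes, none of them called. Isg20 had log2 changes of -0.21 to 0.056 with 1 gland left out. Ifi27 was at 0.0080 without the LPS glands highest in neutrophil markers. Ifi27l2a was at -0.22 to 0.12 with 1 gland left out, 0.34 without the glands highest in B and T markers and 0.0067 without the LPS glands highest in neutrophil markers.

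Labels number the glands of both groups 1 to 5 without stating what a number shares. Correlations between the deviations of same-numbered glands were 0.482, 0.362, 0.0993, 0.103 and 0.494, and 3 of 5 numbers correlated best with their own. With the replicate number as a block, 30 of the 34 genes were called higher, and over all genes 962 were higher and 267 lower.

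At least 76 reads lay behind each value of the 34 genes, and counting error was not separated from the spread between glands.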
